A study of Rattus norvegicus with 862 samples.

Results

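The genes that encode the proteasome were followed in the hearts of rats given drugs and chemicals. The set held every gene whose symbol in the platform's probe-to-gene table starts with Psma, Psmb, Psmc, Psmd or Psme, and it came to 41 of the 14217 genes measured by a probe set with a single gene symbol. Where a gene had several such probe sets, the probe set with the highest mean was kept. The members were 7 alpha subunits and 4 non-catalytic beta subunits of the 20S core, the constitutive catalytic subunits Psmb5 and Psmb7, the inducible catalytic subunits Psmb8, Psmb9 and Psmb10, 6 ATPases of the 19S particle (Psmc1 to Psmc6), 3 further base subunits (Psmd1, Psmd2, Psmd4), 8 lid subunits, 3 assembly chaperones (Psmd5, Psmd9, Psmd10), both subunits of the PA28 activator (Psme1, Psme2) and the PA200 activator Psme4. Psmc3ip and Psme3ip1 were caught by the symbol rule and are not subunits. Psmb6 and Psme3 were not measured here, because their probe sets carry several symbols. No filter on low values was applied, so all 41 members entered every fit.

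The 26S proteasome is the main protease of the cytosol and nucleus. Its barrel-shaped 20S core cuts proteins inside a closed chamber, and the 19S particle recognises ubiquitin-tagged proteins, removes the tag, unfolds them with its ring of ATPases and feeds them in. Interferons, interferon gamma above all, switch on Psmb8, Psmb9 and Psmb10, which replace their constitutive counterparts in newly built cores to form the immunoproteasome, and the PA28 subunits Psme1 and Psme2, which can cap the core in place of the 19S particle. The immunoproteasome makes peptides that MHC class I molecules present to T cells. Heart muscle depends on the constitutive proteasome for the turnover of sarcomere proteins, and lack of proteasome activity is known to raise the transcription of its own subunit genes as a set through the factor NFE2L1.

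The animals were male Sprague Dawley rats, bought at 6 to 8 weeks of age and given 1 of 88 compounds or the vehicle alone. Dosing was daily, save for profiles whose labelled route was a subcutaneous mini-pump, among them Angiotensin II and Isoprenaline. Polyadenylated RNA of each heart was hybridised to an Affymetrix rat genome array, and the deposited values are log2 levels. There were 862 arrays of 840 rats, 611 treated and 229 controls, and most rats were taken at 1, 3 or 5 d. A profile here is a compound at a given dose, vehicle and route, compared with the dose 0 rats of the same vehicle, route, duration and RNA extraction campaign. Of 97 profiles, 95 had such controls, with 2 to 9 treated rats and 1 to 28 controls each. The controls of a vehicle served many compounds, so that profiles are not independent of each other. Whole-heart RNA was measured, and fewer cells of a type and less RNA per cell cannot be told apart in it.

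The label of the tissue was borne out by its defining genes: a list of 21 heart muscle genes had a median level of 13.76 in the controls, against 7.02 for all genes. Some arrays stood apart, through a correlation with the all-array mean below 0.95 or through high liver or adipocyte genes, and there were 40 of these, 30 treated and 10 control. They touched the results, since the mean of the constitutive subunits was 8.43 to 10.31 in the 6 rats under 0.95, and 5 of these 6 lay below the lowest other rat at 9.21. In the 229 controls, 47.7% of the variance of this mean and 41.5% of that of the inducible catalytic subunits lay between the 40 hybridisation dates. Part of such a share arises from the number of dates alone, and vehicle, duration and study were not separated from date. Results are given with these arrays, and without them where that moved a count. The number of arrays, not a read depth, limits the precision.

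The promoters of the inducible genes are shown because the largest changes were theirs. Sequences are from RefSeq on GRCr8, 5′ to 3′ on the gene's strand, and run from 120 bases before a transcription start to 10 bases after it. This start is the outer end of the recorded gene span for Psmb10. The spans of Psmb8 (from 4657049), Psmb9 (from 4668952) and Psme2 (from 33053055) begin further upstream. The whole printed stretch of Psme2 lies inside its gene span. Capitals mark matches to GAAANNGAA, the repeat at the core of the interferon-stimulated response element, read on both strands. Psmb8 (chr20:4657022-4657151, minus strand) and Psmb9 (chr20:4668880-4669009, plus strand) lie near each other on chromosome 20. Psmb10 is at chr19:50743283-50743412 (minus strand) and Psme2 at chr15:33052742-33052871 (minus strand).
Psmb8: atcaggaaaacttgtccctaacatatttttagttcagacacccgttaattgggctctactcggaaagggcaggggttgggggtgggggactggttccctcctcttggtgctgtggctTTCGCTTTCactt
Psmb9: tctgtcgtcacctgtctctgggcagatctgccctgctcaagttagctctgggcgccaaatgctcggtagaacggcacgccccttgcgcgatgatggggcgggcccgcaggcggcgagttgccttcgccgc
Psmb10: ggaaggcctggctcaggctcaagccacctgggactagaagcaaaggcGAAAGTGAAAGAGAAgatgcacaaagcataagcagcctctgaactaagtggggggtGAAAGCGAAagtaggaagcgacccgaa
Psme2: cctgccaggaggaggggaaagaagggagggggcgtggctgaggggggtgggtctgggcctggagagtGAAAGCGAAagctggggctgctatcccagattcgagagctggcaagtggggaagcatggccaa
The repeat was present in 9.71% of 33469 promoters of 300 bases (250 before to 50 after the start) and in 8 of the 37 member promoters that could be matched, namely those of Psma4, Psmb2, Psmb3, Psmb8, Psmb10, Psmd7, Psmd11 and Psme2. Psmb10 held 3 matches, of which 2 overlap in its first marked stretch, Psme2 and Psmb8 held 1 each, and the letters were not found in the window of Psmb9. TTCNNNGAA, the core bound by STAT factors, was in 8.87% of all promoters and in 4 member promoters (Psmb8, Psmc6, Psmd3, Psmd7). No match of GAAANNGAA overlapped a match of TTCNNNGAA. The antioxidant response element, searched as TGACNNNGC and TGAGNNNGC, was in 12.1% and 17.2% of all promoters and in 7 and 9 of those of members. These matches describe letters in a window and not sites in use.

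Across the 95 profiles the members gave 3895 tests, and 39 were higher and 14 lower than the controls at an adjusted p of 0.01 or less (limma, Benjamini-Hochberg over the 14217 genes of a profile), which is called past the test below. The background was 0.864% of all gene tests higher and 1.06% lower. The share past the test in either direction was 1.36% for the members and 1.92% for all genes, so that the members as a whole moved no more often than other genes. The groups within the set differed in size of change. The 30 constitutive subunits of the 26S particle passed in 1.09% of tests (24 higher, 7 lower) and never by 1.5-fold, whereas the 5 inducible members, Psmb8, Psmb9, Psmb10, Psme1 and Psme2, passed in 3.58% (12 higher, 5 lower). With a change of at least 1.5-fold required as well, 9 tests were higher (background 0.356%) and 2 lower (background 0.344%), and all 11 were of Psmb8, Psmb9 or Psmb10. At an unadjusted p under 0.05, 15.3% of member tests and 15.1% of all tests passed.

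The constitutive subunits moved little. Their median change per profile ranged from -0.32 to 0.27 on the log2 scale (SD over profiles 0.110), against -0.57 to 1.03 for the 5 inducible members (SD 0.242). Over profiles, the change of a single constitutive gene had a median SD of 0.135, near the 0.144 of all genes, and that of an inducible gene 0.257. The widest constitutive fall was that of Psmd14, the deubiquitinase of the lid, at -0.64 with Angiotensin II 0.72 mg/kg. The widest rise was that of the lid subunit Psmd8, at 0.68 with Loratadine 2000 mg/kg, and neither passed the test. The Angiotensin II profile had 3 treated rats against 1 control. The lowest median, -0.32, was that of Isoprenaline 4.2 mg/kg, with 2 treated rats against 1 control. In 26 of the 41 genes at least 1 profile passed, in 17 profiles altogether.

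By role, the ATPases and the lid held most of the constitutive genes that rose. Psmc5 passed in 5 profiles and was higher in each. Psmc2, also an ATPase, and the base scaffold Psmd2 passed in 3 each, all higher. Psmc1 and Psmc6 passed once higher, Psmc4 once lower, and Psmc3 in none. In the lid, Psmd8 was higher in 3 profiles, Psmd7 in 2, Psmd6 in 2 with 1 lower, and Psmd11 in 1, while Psmd14 was lower in 1. Among the alpha subunits, which form the gate of the core, Psma6 was higher in 2 and Psma3 in 1, and Psma4 was lower in 1. The non-catalytic beta subunits Psmb1, Psmb2 and Psmb4 were each lower in 1 profile and higher in none. Psmb5 and Psmb7, the measured constitutive counterparts of Psmb8 and Psmb10, passed in no profile, as did Psma1, Psma2, Psma5, Psma7, Psmb3, Psmd1, Psmd3, Psmd4, Psmd9, Psmd12, Psmd13 and Psme3ip1. The 8 profiles with the most members past the test, described next, held 43 of the 53 tests that passed.

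**Figure D1:**
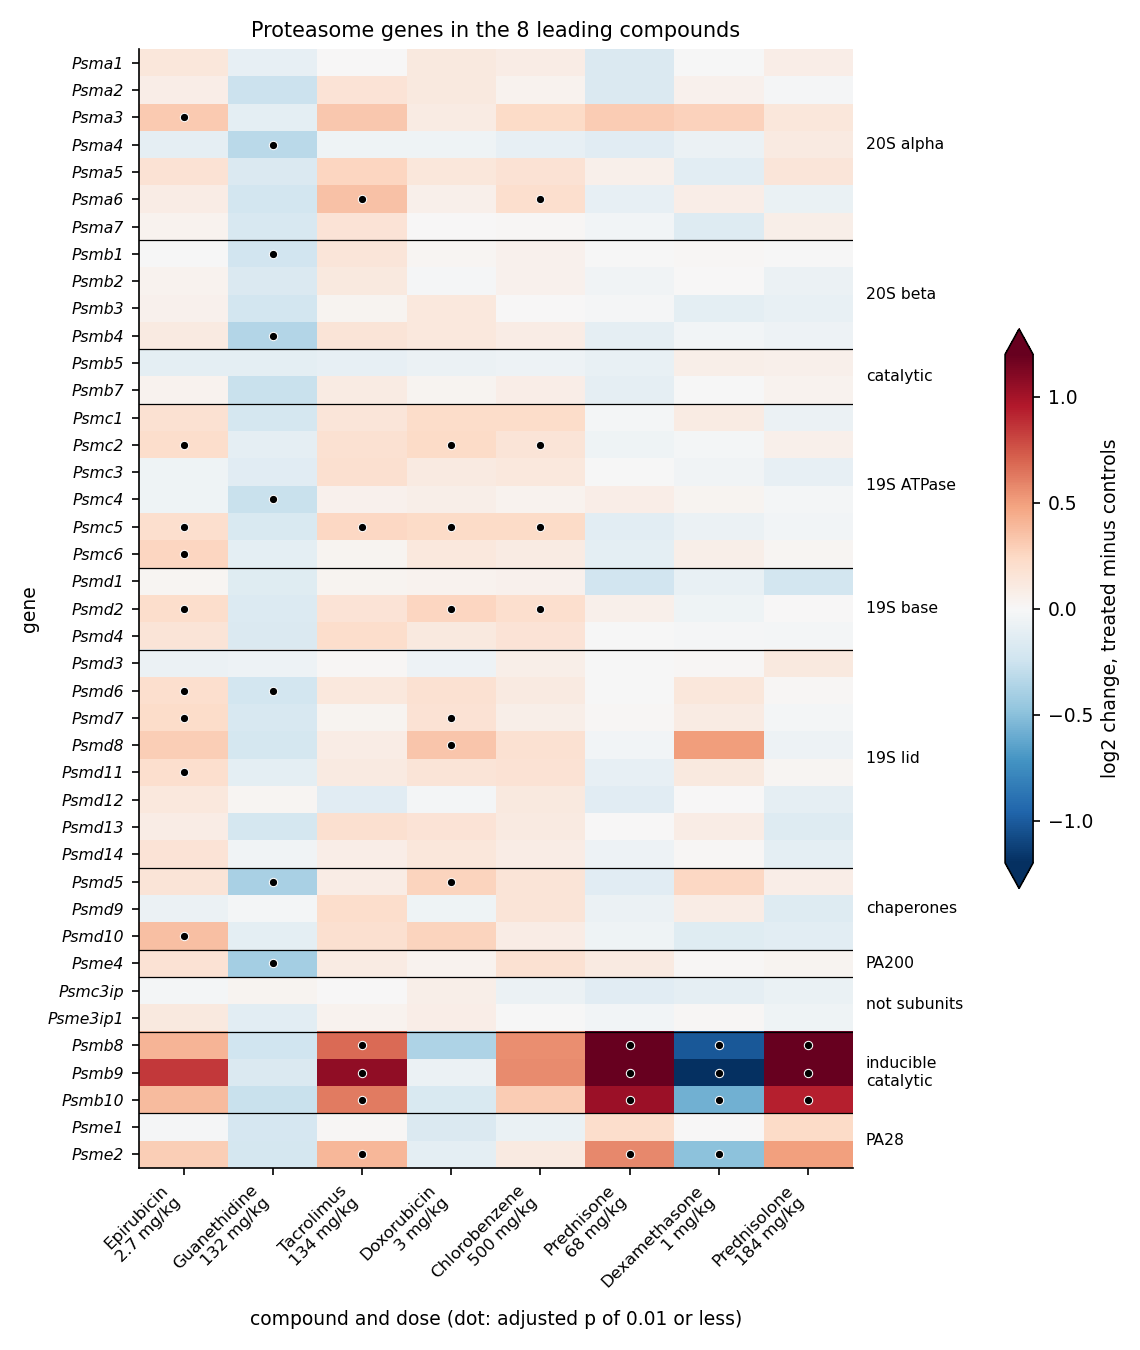
Log2 change (colour, clipped at -1.2 and 1.2) of the 41 proteasome genes (rows, grouped by role) in the 8 profiles with the most members past the test (columns), with a dot where the adjusted p was 0.01 or less. Dots in the epirubicin, doxorubicin and chlorobenzene columns lie in the constitutive rows and, for Psmd10 with epirubicin and Psmd5 with doxorubicin, in the rows of the assembly chaperones, those of prednisone, prednisolone and dexamethasone in the rows of the inducible catalytic subunits and Psme2, and tacrolimus has both.

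The anthracyclines epirubicin and doxorubicin, DNA-binding cancer drugs known for damage to the heart, raised constitutive subunits slightly. Epirubicin at 2.7 mg/kg (saline, intravenous, 1, 3 and 5 d, 9 rats against 22 controls) had 9 members higher and none lower, beside 6.79% of all genes higher. The ATPase Psmc2 was at 11.47 to 11.74 (median 11.58) in treated rats and 11.21 to 11.55 (median 11.39) in controls, a log2 change of 0.21 (SE 0.040, adjusted p = 0.000267). Psmd7 of the lid was at 9.74 to 10.15 (median 9.90) against 9.55 to 9.82 (median 9.75), a change of 0.22 (SE 0.043, adjusted p = 0.000356). In both genes most treated rats lay above the control median and the ranges overlapped. The assembly chaperone Psmd10, also known as gankyrin, had the largest change of the 9 at 0.36 (SE 0.079, adjusted p = 0.00101), with 8.50 to 8.98 in treated rats and 8.06 to 8.81 in controls. Psmc5, Psmd6, Psmd2, Psmd11, Psma3 and Psmc6 were higher by 0.20 to 0.32. The median change of the 30 constitutive subunits was 0.11, with 24 of them above 0, against -0.01 for all genes. Wider medians also occurred with 0 members past the test, such as 0.27 with Phenytoin 572 mg/kg (30 of 30 above 0). With Atenolol 1000 mg/kg the median was -0.25 (0 of 30 above 0). The subunits varied together from rat to rat (given below), so counts above 0, here and in later profiles, are not independent.

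Doxorubicin at 3 mg/kg, given over the same durations and set against the same 22 controls, had 6 members higher and none lower, beside 4.38% of all genes higher. Psmd8 was at 8.95 to 9.37 (median 9.32) in the 9 treated rats and 8.58 to 9.20 (median 8.92) in controls, a change of 0.33 (SE 0.065, adjusted p = 0.000556). Psmc2 was at 11.34 to 11.74 in treated rats, a change of 0.23 (SE 0.045, adjusted p = 0.000461). Psmd2, Psmc5, Psmd5 and Psmd7 were higher by 0.17 to 0.27, and the ranges of treated rats and controls overlapped in all 6 genes. The constitutive median was 0.12, with 25 of 30 above 0. Since the controls are shared, the genes that both drugs raised (Psmc2, Psmc5, Psmd2, Psmd7) are given as values and not as an overlap.

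Other genes of protein turnover moved with epirubicin. Of 25 measured ubiquitin, shuttle and proteasome-partner genes, 9 were higher and none lower, among them Sqstm1, which carries ubiquitinated proteins to autophagy (1.04), the shuttle Ubqln2 (0.41) and the proteasome inhibitor subunit Psmf1 (0.40). Of 14 targets of the oxidative stress factor NRF2, 6 were higher, with Nqo1 at 1.00, Srxn1 at 0.95 and Hmox1 at 0.93. With doxorubicin 3 of the 25 partners (Sqstm1 0.73) and 1 of the 14 targets (Nqo1 0.78) were higher. Red blood cell genes fell, 5 of 5 with each drug, and their mean level was 5.68 to 7.79 in epirubicin rats against 8.08 to 9.46 in controls. The mean level of the 21 heart muscle genes had near-equal ranges with epirubicin (13.37 to 13.51 against 13.31 to 13.53), but single genes of the list moved: the slow myosin Myh7 was higher (1.71 with epirubicin, 1.48 with doxorubicin), while the calcium release channel Ryr2 (-0.996 and -0.87), the giant sarcomere protein Ttn (-0.37 and -0.23) and the troponin subunit Tnni3 (-0.22 and -0.27) were lower. Ckm (-0.24) and Pln (0.15) also passed with epirubicin, and Mybpc3 (0.16) with doxorubicin. Macrophage genes were higher in 3 of 10 and lower in 1 of 10 with epirubicin. The part of these cells in the subunit values was not tested. Without the arrays that stood apart, 7 members passed with each drug. Only 2 controls of epirubicin (1 at 1 d and 1 at 3 d) and 6 of doxorubicin share the treated rats' study code. With these alone 0 passed with either drug, but so few controls could hardly show changes of this size. The 5 d epirubicin rats do not enter that fit. Within hybridisation dates 1 passed with epirubicin. Leaving out single treated rats gave 5 to 12 members with epirubicin, and 5 without rat 2 of the 3 d group or rat 2 of the 5 d group.

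Guanethidine, which blocks noradrenaline release from sympathetic nerves, was the only leading profile in which constitutive subunits fell. At 132 mg/kg (CMC, gavage, 3 and 5 d, 6 rats against 11 controls) 7 members were lower and none higher, beside 6.68% of all genes lower. Psme4, the PA200 activator, was at 9.73 to 10.06 (median 9.91) in the 6 treated rats and 10.21 to 10.43 (median 10.33) in controls, a change of -0.40 (SE 0.058, adjusted p = 0.000272) with no overlap. The beta subunit Psmb4 was at 10.85 to 11.10 against 10.97 to 11.43, a change of -0.35 (SE 0.066, adjusted p = 0.00186). Psmd5, Psma4, Psmc4, Psmb1 and Psmd6 were lower by 0.39 to 0.22, and all 6 treated rats were below the control median in each of the 7 genes. Only 1 of the 30 constitutive subunits had a change above 0, the constitutive median was -0.18, and that of all genes was -0.07. Among their partners, the zinc finger protein Zfand5 (-0.51), the ubiquitin-activating enzyme Uba1 (-0.35) and the segregase Vcp (-0.29) were lower too, 3 of 25, and of 9 heat shock genes Hspa1a (-0.81), Hspb1 (-0.72) and Dnaja1 (-0.39) were lower. Some cell markers were lower as well: 2 of 10 of macrophages (Lyz2 -0.72, C1qb -0.53), with a mean level of 7.09 to 7.72 against 7.47 to 8.48, 2 of 9 of endothelial cells (Emcn -0.51, Tek -0.45), 1 of 5 of red blood cells (Slc4a1 -1.16) and 1 of 8 of fibroblasts (Col3a1 -0.57). Their part was not tested.

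The fall with guanethidine depended on the scaling. None of its controls shared a hybridisation date or the study code with the treated rats, so that treatment and hybridisation date cannot be told apart. When the arrays were quantile normalised once more, 0 members passed and the constitutive median was 0.04. Psmb1 and Psmd6 then changed direction, at 0.026 and 0.015. Leaving out single rats gave 2 to 7 members, and 2 without rat 1 or 3 of the treated 3 d group or rat 2 of the treated 5 d group.

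**Figure D2:**
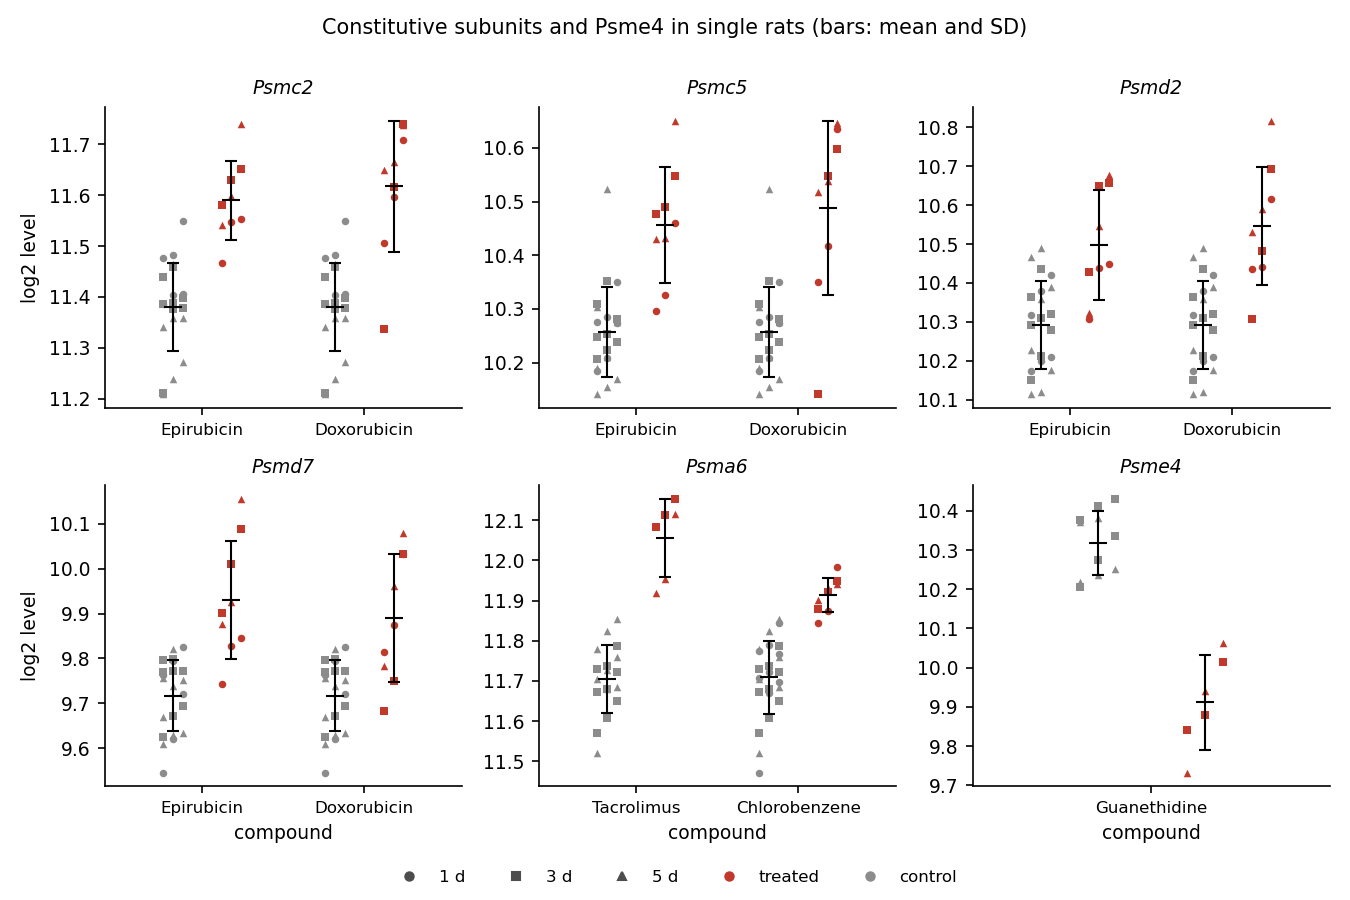
Log2 level (y axis) of 5 constitutive subunits and the activator Psme4 in single treated rats (red) and matched controls (grey), with the mean and SD as bars and the duration as the symbol. Treated rats and controls overlapped in Psmc2, Psmc5, Psmd2 and Psmd7 with epirubicin and doxorubicin and in Psma6 with chlorobenzene. They did not overlap in Psma6 with tacrolimus or in Psme4 with guanethidine.

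Tacrolimus, a calcineurin inhibitor that suppresses T cells, raised inducible and constitutive members together. At 134 mg/kg (CMC, gavage, 3 and 5 d, 6 rats against 18 controls) 6 members were higher and none lower, beside 5.47% of all genes higher. Psmb9, the inducible counterpart of Psmb6, was at 8.65 to 9.50 (median 9.23) in treated rats and 7.61 to 8.60 (median 8.11) in controls, a change of 1.07 (SE 0.121, adjusted p = 1.65e-06) and 2.09-fold. No treated rat overlapped with a control. Psma6 of the alpha ring was at 11.92 to 12.15 (median 12.10) against 11.52 to 11.85 (median 11.71), a change of 0.35 (SE 0.050, adjusted p = 2.72e-05), also with no overlap. Psmb10 was at 8.06 to 8.54 against 7.46 to 8.14, a change of 0.62 (SE 0.092, adjusted p = 3.71e-05). Psmb8 rose by 0.68 (adjusted p = 0.00338), Psme2 by 0.39 (adjusted p = 0.000618) and Psmc5 by 0.25 (adjusted p = 0.00737). The constitutive median was 0.12, with 27 of 30 above 0.

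Of 23 measured interferon response and antigen presentation genes, 12 were higher with tacrolimus, with Ifit3 at 1.10 and the immunity-related GTPase Igtp at 0.87. The cytotoxic genes Gzmb (0.82) and Prf1 (0.69) were the only ones of 13 lymphocyte markers to rise. Macrophage markers were higher in 4 of 10, with a mean level of 7.83 to 8.32 in treated rats and 7.38 to 7.95 in controls, and the part of these cells was not tested. Psmb9 was 0.77 to 1.26 higher on each of 4 hybridisation dates that held treated rats and controls. With hybridisation date as a fixed block, 2 members passed, and Psmb10 missed the test at 0.38 (adjusted p = 0.0247). Within the dates that held both arms, fitted alone, 0 members passed. Of the other immunosuppressants at their own doses, Cyclosporin A 350 mg/kg had Psmb9 higher by 0.54 (SE 0.115, adjusted p = 0.00204) and Psmc5 by 0.40 (SE 0.075, adjusted p = 0.000611), beside 3.09% of all genes. Cyclosporin A 300 mg/kg in an acacia vehicle (gavage, 1, 3 and 5 d) had 0 members past the test and an inducible median of 0.06. Its 9 rats were set against 9 controls, all of the same study code. Rapamycin 60 mg/kg had Psmb9 at -0.53 at 3 d and -0.44 at 5 d, neither past the test. The doses and vehicles differ and the drugs were not compared by a test.

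Chlorobenzene, an industrial solvent, at 500 mg/kg (CMC, gavage, 1, 3 and 5 d, 9 rats against 27 controls) had 4 members higher and none lower, beside 4.46% of all genes higher. Psma6 was at 11.85 to 11.98 (median 11.92) against 11.47 to 11.85 (median 11.72), a change of 0.21 (SE 0.037, adjusted p = 7.41e-05). Psmc5 rose by 0.23 (adjusted p = 0.00156), Psmd2 by 0.20 (adjusted p = 0.00801) and Psmc2 by 0.16 (adjusted p = 0.00153). The constitutive median was 0.09, and 28 of 30 subunits were above 0. The NRF2 targets Hmox1 (1.91) and Srxn1 (1.61) led the 6 of 14 that rose, Sqstm1 rose by 0.78 and the heat shock gene Hspa1a by 1.86, while 7 of 16 genes of the unfolded protein response fell. Macrophage markers were higher in 6 of 10 (mean level 7.83 to 8.47 against 7.33 to 7.95). Fibroblast markers were lower in 5 of 8, with Postn at -1.29 and Col1a1 at -1.02, red blood cell genes in 4 of 5, and endothelial markers in 4 of 9, with Emcn at -0.71 and Kdr at -0.59 and Flt1 higher at 0.39. The part of these cells was not tested. No constitutive subunit passed with hybridisation date as a fixed block, and 1 with it as a random block.

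In the leading glucocorticoid profiles the inducible catalytic subunits differed from controls in both directions, and the constitutive ones hardly at all. Prednisone, which the liver turns into the active prednisolone, was given at 68 mg/kg (CMC, gavage) and measured at 1 d in 3 rats against 9 controls, with 4 members higher beside 1.25% of all genes. Psmb8, the inducible counterpart of Psmb5, was at 9.29, 9.38 and 9.84 in the treated rats and 7.38 to 8.03 (median 7.79) in controls, a change of 1.80 (SE 0.149, adjusted p = 1.86e-06) and 3.47-fold. Psmb9 was at 9.29, 9.48 and 9.92 against 7.96 to 8.39, a change of 1.37 (SE 0.129, adjusted p = 6.54e-06). Every treated rat lay above every control in these genes. Psmb10 was at 8.52, 8.62 and 8.99 against 7.52 to 7.86, a change of 1.03 (SE 0.097, adjusted p = 7.04e-06). Psme2 was at 10.13, 10.16 and 10.42 against 9.49 to 9.81, a change of 0.57 (SE 0.083, adjusted p = 0.000608). The constitutive median was -0.04.

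Prednisolone at 184 mg/kg (water, gavage, 1 d, 3 rats against 9 controls) had 3 members higher beside 0.943% of all genes. Psmb9 was at 8.90, 9.94 and 10.01 against 7.77 to 8.69, a change of 1.44 (SE 0.222, adjusted p = 0.00139). Psmb8 was at 8.24, 9.77 and 9.86 against 7.32 to 8.19, a change of 1.50 (SE 0.274, adjusted p = 0.00512), and Psmb10 rose by 0.93 (SE 0.179, adjusted p = 0.00746). The treated rats lay above all controls in the 3 genes, but 1 of the 3 lay well below the other two. Leaving out either of the 2 higher rats, numbered 1 and 3, left 0 members past the test, and leaving out single controls left 1 to 3.

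Dexamethasone, a more potent and longer-acting glucocorticoid, went the other way at 1 mg/kg (corn oil, gavage, 3 and 5 d, 6 rats against 19 controls), with 4 members lower and none higher beside 8.32% of all genes lower. Psmb9 was at 5.79 to 7.17 (median 6.78) in treated rats and 7.67 to 8.59 (median 8.20) in controls, a change of -1.47 (SE 0.144, adjusted p = 1.08e-08) that corresponds to a 2.77-fold lower level, with no overlap. Psmb8 was at 6.36 to 7.35 (median 6.70) against 6.82 to 8.27 (median 7.81), a change of -1.02 (SE 0.161, adjusted p = 2.41e-05). All 6 treated rats were below the control median in each of the 4 genes. Psmb10 fell by 0.57 (adjusted p = 1.09e-05) and Psme2 by 0.50 (adjusted p = 1.26e-05), while Psme1, the partner of Psme2, did not pass. The constitutive median was 0.01. The difference in Psmb9 was -1.27, -1.30 and -2.30 on the 3 hybridisation dates that held both arms.

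Interferon-regulated genes moved in the same direction as the inducible subunits in these rats. With prednisone 21 of 23 were higher, led by the antiviral genes Mx1 (5.41) and Ifit3 (4.47), and with prednisolone 19 of 23, led by Mx1 (5.49) and Ifit3 (4.91). With dexamethasone 17 of 23 were lower, among them the GTPase Gbp2 (-2.17), the chemokine Cxcl9 (-1.67) and Isg15 (-1.57), and Oas1a alone was higher (1.36). Cell markers also moved with dexamethasone: 6 of 13 lymphocyte markers were lower, with a mean level of 5.01 to 5.17 against 5.29 to 5.58. Its macrophage markers were higher in 7 of 10 (8.24 to 8.98 against 7.28 to 8.03) and its neutrophil markers in 3 of 4 (6.39 to 7.57 against 4.88 to 5.90), while 7 of 8 fibroblast genes were lower. With prednisone and prednisolone the lymphocyte marker Gzmb was higher (1.57 and 1.35). The part of these cells in the inducible subunits was not tested.

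Durations were fitted apart after these values were seen, since the whole-profile fits average over them. This gave 197 compounds at single durations. An inducible subunit was past the test and higher in 8 of them, and lower in 3. A constitutive subunit was past the test in 7, at most 1 each. Of all single gene tests in these fits, 0.228% were past the test and higher and 0.202% lower. These shares are per gene, whereas the counts take any gene of a group, so the shares are no background for the counts. The inducible members of several compounds rose at 1 duration alone.

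**Figure D3:**
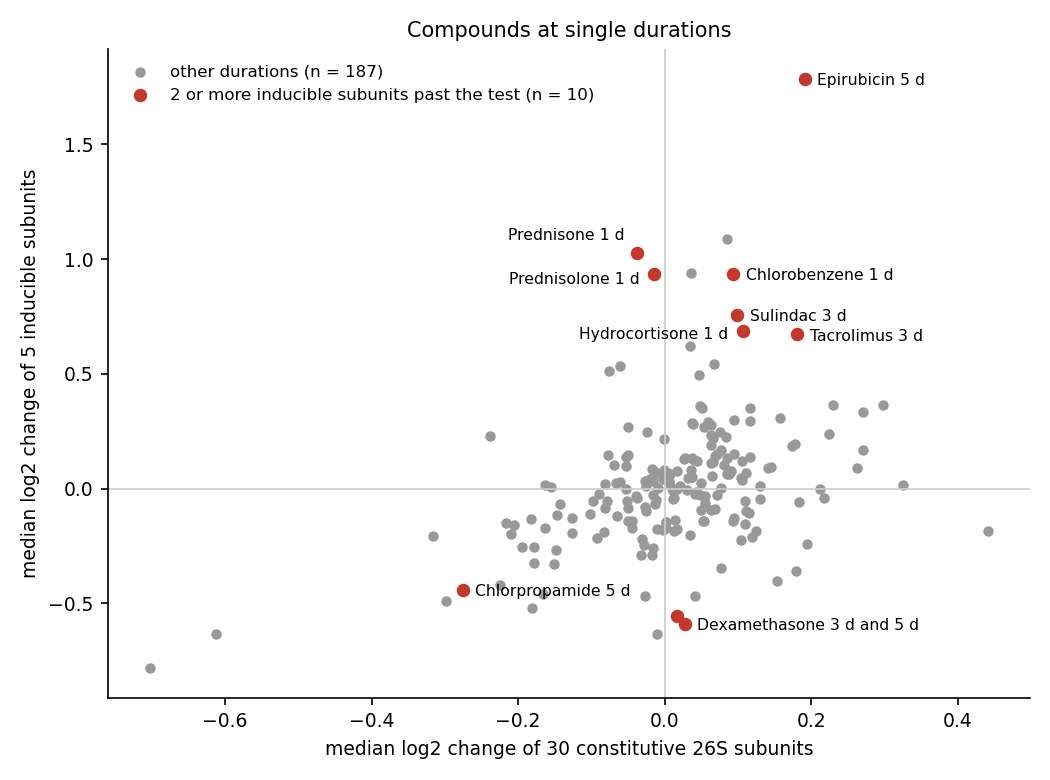
Median log2 change of the 5 inducible members (y axis) against that of the 30 constitutive 26S subunits (x axis) for 197 compounds at single durations, with the 10 in which at least 2 inducible members passed the test in red. Epirubicin at 5 d had the highest inducible median, 1.79, with a constitutive median of 0.19, and the prednisone and prednisolone points lay near 0 on the constitutive axis.

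Epirubicin at 5 d gave the largest rise of any member. Psmb9 was at 11.11, 11.16 and 11.29 in the 3 treated rats and 7.66 to 8.66 (median 7.85) in 8 controls, a change of 3.19 (SE 0.181, adjusted p = 4.62e-07) and 9.13-fold. Psmb8 was at 9.66, 9.93 and 9.98 against 7.27 to 8.25, a change of 2.09 (SE 0.206, adjusted p = 5.37e-05). Psmb10 was at 9.35, 9.63 and 9.68 against 7.58 to 8.14, a change of 1.79 (SE 0.123, adjusted p = 2.07e-06). Psme2 was at 10.69, 10.75 and 10.91 against 9.42 to 10.00, a change of 1.17 (SE 0.118, adjusted p = 6.12e-05). The treated rats agreed closely and did not overlap with controls in these 4 genes, at a background of 2.34% of genes higher. Psme1 was 0.33 higher and missed the test (adjusted p = 0.0956).

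The same genes were not raised earlier. The change of Psmb9 was -0.33 at 1 d (adjusted p = 0.158) and -0.40 at 3 d, neither past the test, and the test of treatment by duration gave adjusted p = 1.05e-09 for Psmb9 and Psmb10, 4.69e-07 for Psmb8, 5.1e-07 for Psme2 and 0.00752 for Psme1, beside 0.767% of all genes. Psmb9 was higher by 3.09, 3.45 and 2.50 on the 3 hybridisation dates that held both arms at 5 d. In the rats of the same study code, the 5 controls (other vehicles and durations included) had Psmb9 between 8.05 and 8.51, and the 3 given rapamycin for 5 d were at 6.83 to 8.21. The interferon list differed in makeup from that of the steroids: 12 of 23 were higher, led by Igtp (3.06), Cxcl9 (2.75), Ifit3 (2.24) and Gbp2 (2.03), while Mx1 was at 0.92, Isg15 at 0.76, Mx2 at -0.18 and Rsad2 at -0.90, none past the test. Macrophage markers were higher in 4 of 10 (8.02 to 8.43 against 7.38 to 7.89), and their part was not tested.

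The related drugs at 5 d, at their own doses and against the same controls, had lower Psmb9 levels. Doxorubicin 3 mg/kg, which differs from epirubicin in the orientation of a hydroxyl group on its sugar, had 7.64, 7.84 and 8.78 and a change of 0.09. Mitoxantrone 2 mg/kg had 8.31, 8.37 and 9.40, a change of 0.70 that did not pass (adjusted p = 0.191). Daunorubicin 3.25 mg/kg was at a change of 0.09 and Idarubicin 0.625 mg/kg at -0.39. Doses differed, so the values stand side by side without a test. The constitutive rise of epirubicin and doxorubicin had no such break. Psmc2 was at 0.07, 0.24 and 0.30 after 1, 3 and 5 d of epirubicin and at 0.15, 0.18 and 0.36 after doxorubicin. The test of treatment by duration was not passed. Daunorubicin 3.25 mg/kg, over the same durations and against 22 controls, had 0 members past the test and a constitutive median of 0.06. Mitoxantrone 2 mg/kg had 0 members past it and a median of 0.09.

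Chlorobenzene raised the inducible subunits at 1 d. Psmb9 was at 9.69, 10.02 and 10.43 in 3 rats against 7.96 to 8.39 in 9 controls, a change of 1.85 (SE 0.139, adjusted p = 2.72e-06), and Psmb8 at 8.95, 9.48 and 9.61 against 7.38 to 8.03, a change of 1.64 (SE 0.159, adjusted p = 2.04e-05), beside 1.9% of genes higher. Psmb10 rose by 0.94 (adjusted p = 1.7e-05) and Psme2 by 0.45 (adjusted p = 0.00187). By 3 d Psmb9 was at -0.29 and by 5 d at 0.14, neither past the test, and treatment by duration gave adjusted p = 6.22e-08 for Psmb9, 6.7e-05 for Psmb8 and 0.000364 for Psmb10, beside 0.563% of genes. Of the interferon list 21 of 23 were higher at 1 d, with Ifit3 at 3.48 and Mx1 at 3.36. Furan 24 mg/kg, another small ring compound, had Psmb9 at 9.19, 9.59 and 9.83 at 1 d against 7.62 to 8.64, a change of 1.37 that just missed the test (adjusted p = 0.0102), with treatment by duration at adjusted p = 0.00384 beside 0.295% of genes. 1,4-Dichlorobenzene 900 mg/kg, chlorobenzene with a further chlorine on the ring, had Psmb9 at -0.36, 0.08 and 0.15 after 1, 3 and 5 d. These doses and vehicles differ and were not compared.

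Of the other steroids, hydrocortisone had inducible subunits past the test at 1 d. Hydrocortisone 56 mg/kg (corn oil, subcutaneous, 3 rats against 3 controls) had Psmb8 at 8.82, 9.29 and 9.31 at 1 d against 7.46 to 7.70, a change of 1.59 (SE 0.156, adjusted p = 0.000236), and Psmb9 at 0.93 (SE 0.153, adjusted p = 0.00731), beside 1.09% of genes higher. At 3 d Psmb9 was at 6.48, 6.75 and 7.53 against 7.84 to 8.36, below every control and not past the test (adjusted p = 0.0747). Treatment by duration gave adjusted p = 0.00494 for Psmb8 and 0.00489 for Psmb9, beside 0.633% of genes. Leaving out single rats at 1 d gave 1 to 3 inducible members. The call of Psmb8 held in all 6 of these fits, while that of Psmb9 held in 1, the fit without treated rat 1. Fludrocortisone Acetate 125 mg/kg had Psmb8 at 8.11, 9.43 and 10.17 at 1 d against 7.38 to 8.03, all above the controls and not past the test (adjusted p = 0.0245), with treatment by duration at 0.00695 beside 0.387% of genes. Fluocinolone Acetonide 2.5 mg/kg had Psmb9 at -1.36 at 3 d (adjusted p = 0.0314), and Cortisone 206 mg/kg, the inactive precursor of hydrocortisone, at -0.53 at 1 d (adjusted p = 0.279). Doses, vehicles and durations differ between the steroids, and the dexamethasone rats compared here were taken at 3 and 5 d.

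The dexamethasone fall was of like size at both durations, with Psmb9 at -1.39 at 3 d (adjusted p = 7.65e-05) and -1.55 at 5 d (adjusted p = 0.00012), beside 4.97% and 3.2% of genes lower. Chlorpropamide 269 mg/kg (CMC, gavage), a sulfonylurea that lowers blood glucose, was the only other compound with inducible subunits lower at a single duration, 2 of them at 5 d beside 3.55% of genes lower. Psmb8 was at 6.75, 6.89 and 7.03 in 3 rats against 7.48 to 8.03 in 5 controls, a change of -0.82 (SE 0.136, adjusted p = 0.00557), and Psmb9 at 7.53, 7.58 and 7.62 against 8.05 to 8.59, a change of -0.74 (SE 0.137, adjusted p = 0.00784). The groups did not overlap, and 8 of 23 interferon genes were lower, with Rsad2 at -1.46 and Gbp2 at -1.18. Macrophage markers had a mean level of 7.11 to 7.44 against 7.59 to 8.19 with 0 of 10 past the test, and their part was not tested. Both calls were lost when the arrays were quantile normalised once more, without any single treated rat, and without control 3 or 5, and that of Psmb9 without control 4.

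Tacrolimus also raised Psmb9 at both, by 1.14 at 3 d (adjusted p = 0.000632) and 1.00 at 5 d (adjusted p = 0.00843), beside 1.24% and 0.394% of genes higher. Sulindac 132 mg/kg, an anti-inflammatory drug, raised Psmb9 at 3 d, at 8.94, 9.99 and 10.00 (change 1.37, adjusted p = 0.00224) and Psmb8 by 1.11 (adjusted p = 0.00807), beside 2.19% of genes. In these sulindac rats 9 of 10 macrophage and 4 of 4 neutrophil markers were higher, and their part was not tested. Without rat 1 or without rat 2 of the 3 d group no inducible member passed, and without rat 3 there were 4. At 5 d, in 2 rats, Psmb9 was at -0.25. Valproic Acid 1500 mg/kg at 5 d had Psmb9 at 8.26, 8.98 and 12.16, so that its change of 1.77 came from 1 rat and did not pass (adjusted p = 0.140).

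**Figure D4:**
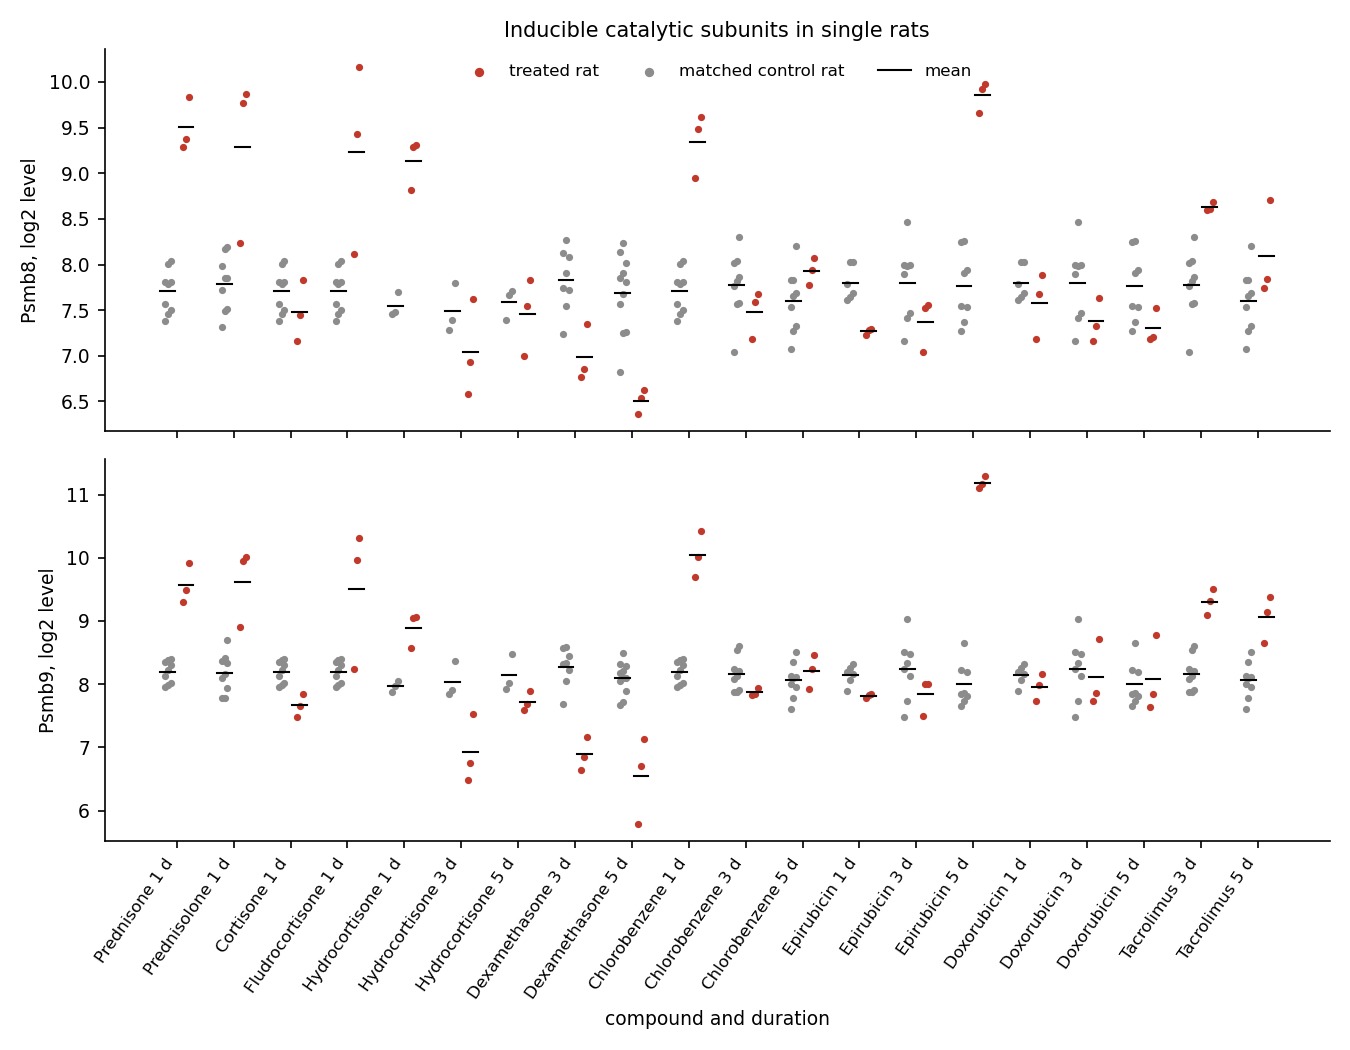
Log2 level (y axis) of Psmb8 and Psmb9 in single treated rats (red) and their matched controls (grey) for steroids, chlorobenzene, anthracyclines and tacrolimus by duration, with the mean as a bar. Treated rats stood above the controls at 1 d with prednisone, prednisolone and chlorobenzene and at 5 d with epirubicin, and Psmb9 stood below them with dexamethasone.

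None of the matched controls of prednisone, prednisolone, chlorobenzene, tacrolimus or dexamethasone carried the study code of the treated rats. The same held for guanethidine, sulindac, chlorpropamide, Fludrocortisone Acetate, Fluocinolone Acetonide and Cyclosporin A 350 mg/kg. Of the 22 epirubicin controls, 2 carried it, 1 at 1 d and 1 at 3 d, and none of the 8 at 5 d did. Treatment and study therefore cannot be told apart in these comparisons, epirubicin at 5 d included. Other rats of some of these codes are given as values. The 3 saline controls of the prednisone code had Psmb9 at 7.84 to 8.51 and the 6 corn oil controls of the tacrolimus code at 8.09 to 8.59, below all prednisone and tacrolimus rats. Rats of the tacrolimus code that were given Clofibric Acid (corn oil, gavage) were at 7.99 to 8.83 after 1 d, 8.40 to 8.44 after 3 d and 8.31, 8.71 and 9.51 after 5 d, so that they overlapped with the tacrolimus rats at 8.65 to 9.50. Pentoxifylline rats of the prednisone code were at 6.43 to 8.49 after 3 d and at 8.73 and 8.86 after 5 d, below the prednisone rats. Oxybutynin rats of the prednisolone code were at 7.92 to 8.44 after 3 and 5 d. The 6 controls of the hydrocortisone code were at 7.84 to 8.47 and the 11 of the fludrocortisone code at 7.77 to 8.78. No rat of the chlorobenzene or dexamethasone code was a control. Chlorambucil rats of the dexamethasone code (corn oil, gavage) were at 7.72 to 8.24 after 3 d and 7.38 to 8.43 after 5 d. The dexamethasone rats, at 5.79 to 7.17, lay below all of these.

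The remaining 9 profiles with a member past the test held 10 tests, 2 of which were the Cyclosporin A values above. Psmc1 was at 9.95 to 10.31 with Bezafibrate 617 mg/kg against 9.31 to 9.82, with no overlap and a change of 0.44 (SE 0.081, adjusted p = 0.00825), beside 0.535% of genes higher. Psmd8 rose with the steroids Fluocinolone Acetonide (0.47, adjusted p = 0.00604) and Hydrocortisone (0.40, adjusted p = 0.00413), which share their 9 controls, beside 4.69% and 1.81% of genes higher. Psmd6 rose with Fludrocortisone Acetate (0.16, adjusted p = 0.00634), beside 3.05%. Psmd14 fell by 0.38 with Acrolein 20 mg/kg (8.48 to 8.95 against 8.80 to 9.46, adjusted p = 2.3e-05), beside 7.51% of genes lower. Psmb2 fell by 0.19 with Chlorpropamide 269 mg/kg (adjusted p = 0.00663), beside 2.89% of genes lower, and Psme1 by 0.26 with Isoprenaline 2 mg/kg (adjusted p = 0.00896), beside 2.14%. With Chlorpropamide the changes of Psmb1 and Psme4 also differed between durations, as did 5.77% of all genes. Psmc3ip, a recombination factor and not a subunit, rose by 0.35 with Cyclophosphamide 25 mg/kg (adjusted p = 0.0023), beside 3.38% of genes higher.

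Dose could be compared within a compound for 3 drugs, and no leading compound was among them. Celecoxib 400 against 35 mg/kg (5 d, 3 rats each), Valsartan 1000 against 30 mg/kg (1 d, 3 against 2) and Imatinib 150 against 15 mg/kg (1, 3 and 5 d, 9 each) had 0 members past the test, where 0, 0 and 37 genes (0.26%) passed. At an unadjusted p under 0.05 there were 2, 0 and 3 members, and the constitutive median of high minus low dose was -0.08, -0.07 and -0.01. These comparisons do not show that the doses act alike.

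Within conditions, the members rose and fell together from rat to rat. Levels were centred on the mean of each condition, leaving 831 rats in 254 conditions, and correlations are given as a description, since rats share arrays' quality and hybridisation dates. The 435 pairs of constitutive subunits had a median r of 0.64 (0.20 to 0.88), against 0.02 for all gene pairs. Without the arrays that stood apart (793 rats) the median was 0.48 (-0.02 to 0.81), and with levels centred on hybridisation date as well it was 0.65. Psmb4 (0.92), Psmc2 (0.91) and Psmb1 (0.91) followed the mean of the other constitutive subunits most closely, and Psmd3 and Psma3 least, both at 0.54. The catalytic subunit Psmb5 was also low, at 0.64.

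The inducible catalytic subunits formed a block of their own. The 3 pairs of Psmb8, Psmb9 and Psmb10 had r of 0.72 to 0.80, and their median r with the constitutive subunits was 0.34. Psme2 lay between the blocks, at 0.74 with the catalytic mean and 0.62 with the constitutive mean, while its partner Psme1 was at 0.44 and 0.73. Genes outside the set whose levels were most like the constitutive mean were Rtraf (0.88; 0.80 without the arrays that stood apart), the signalosome subunit Cops5 (0.88; 0.82), Emc7, Ccz1 and the prefoldin subunit Pfdn5. For the inducible catalytic mean, ranked after its values were seen, they were LOC100910973 (0.80), the interferon-induced GTPases Gbp2 (0.80), Igtp (0.78) and Irgm2 (0.77), the peptide transporter Tap1 (0.75) and the factor Irf1 (0.75).

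**Figure D5:**
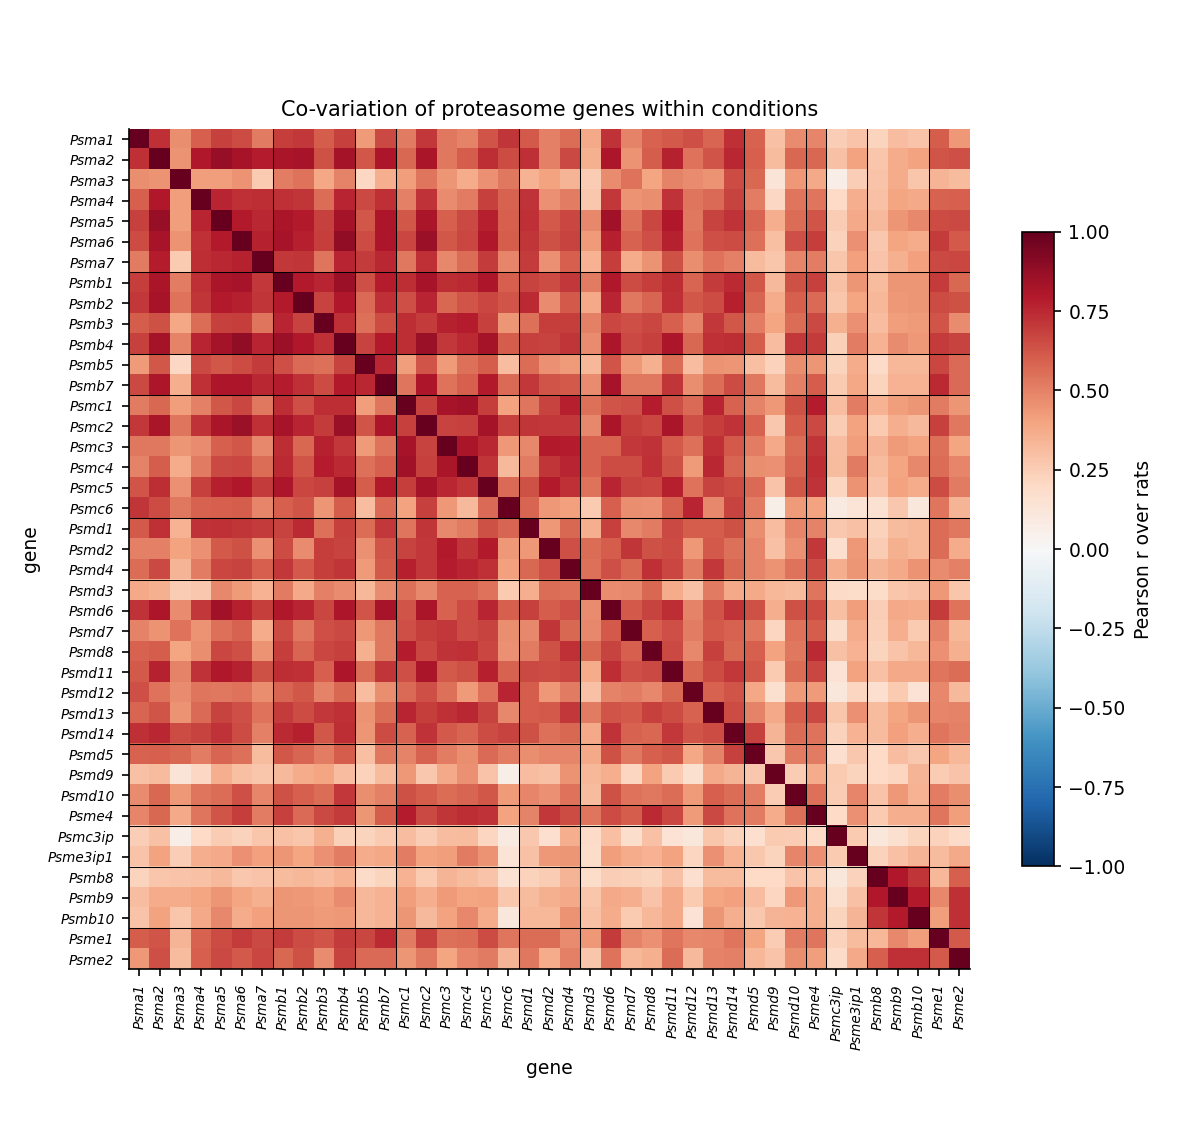
Pearson r (colour) over 831 rats between the levels of all pairs of the 41 genes, centred within conditions and ordered by role. The constitutive subunits form a broad block (median r 0.64), Psmb8, Psmb9 and Psmb10 form a small block of 0.72 to 0.80, and Psmc3ip and Psmd9 follow the others weakly.

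The spread between control rats was also wider for the inducible genes. The constitutive mean of the controls was 10.08 ± 0.150 (SD) and that of Psmb8, Psmb9 and Psmb10 was 7.83 ± 0.277. In treated rats the SDs were 0.187 and 0.527, and the catalytic mean reached from 5.94 to 11.27. Between the 2 arrays of 22 rats, from different extraction campaigns, the SD was 0.259 for the constitutive mean and 0.304 for the catalytic mean. The later minus earlier difference of the constitutive mean ran from -1.47 to 0.13, with a median of -0.11. The lowest difference weighs heavily on that SD.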

How the data were processed

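The authors deposited log2 expression values made from the scanned arrays. The submitters' processing notes name RMA with no version, and the methods of the study name frozen RMA. The deposited log2 values were used as given, with no filter, and 0 columns were left unused. Of 31099 probe sets, 20826 carry 1 gene symbol and entered, and 436 with several, 9780 with none and 57 controls did not. Where a rat had 2 arrays, that of the earlier extraction campaign (extraction days at most 14 d apart) was used. 12 controls whose labels disagree entered no comparison, and 2 profiles had no matched control. Each profile was fitted with limma 3.58.1 in R 4.3.3 (lmFit, eBayes) on treatment, with duration and campaign as a factor, and with Benjamini-Hochberg adjustment over 14217 genes. A test was passed at an adjusted p of 0.01 or less. The text names the members that passed in the 8 profiles with the most members past the test. Labels do not say whether rats of a group were independent beyond being separate animals. Members, gene lists, marker lists and the conditions shown by duration were chosen with earlier results of these data known. The code was tested on simulated data. Alternatives were other controls, hybridisation date as a block, a further quantile normalisation, the methods' t-test, other thresholds and leaving out rats or arrays. Plots used Python 3.11.15 and its matplotlib library, version 3.10.9.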

Additional observations from a re-analysis of the deposited data

Results flagged for a closer look

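In 6 profiles the change of a member depended on the duration of dosing, and the test of treatment by duration (limma, adjusted over all genes) was passed by 14 tests of members. With Epirubicin the adjusted p was 1.05e-09 for Psmb9, 1.05e-09 for Psmb10, 4.69e-07 for Psmb8, 5.1e-07 for Psme2 and 0.00752 for Psme1, with the rise at 5 d. With Chlorobenzene it was 6.22e-08 for Psmb9, 6.7e-05 for Psmb8 and 0.000364 for Psmb10, with the rise at 1 d. Hydrocortisone gave 0.00489 for Psmb9 and 0.00494 for Psmb8, Fludrocortisone Acetate 0.00695 for Psmb8 and Furan 0.00384 for Psmb9, each with its highest change at 1 d. Chlorpropamide gave 0.00342 for Psme4 and 0.00722 for Psmb1, the only ones of the 14 that are not inducible members, beside 5.77% of all genes.

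Of 16 looks at groups of 4 to 10 controls for a rat far from the others, 2 found one. A saline mini-pump control at 5 d had a constitutive mean of 10.37, above the other 3 at 10.06 to 10.10. Among the controls with disagreeing labels at 5 d, 1 had 9.75, below the other 5 at 10.10 to 10.23. Chance flags about 1 in 20 such groups.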

How the results depend on the processing

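No paired analysis was possible because the labels give no replicate numbers that the groups share. With the controls of every campaign, 59 tests of members were higher and 74 lower, 5 lower by 1.5-fold, with 22 members lower for guanethidine (constitutive median -0.26), 10 higher for tacrolimus, 9 for chlorobenzene and 1 inducible subunit for dexamethasone at 3 d. With controls of the same study code alone (51 profiles), 0 were higher, 0 of them by 1.5-fold, 1 lower, 0 lower by 1.5-fold. Epirubicin, with 2 such controls, and doxorubicin, with 6, had 0. Quantile normalisation once more gave 62 higher, 0 for guanethidine (constitutive median 0.0398, Psmb1 0.026, Psmd6 0.015), 11 for chlorobenzene and 0 for chlorpropamide at 5 d. Without the arrays that stood apart 24 were lower. With hybridisation date as a random block (90 profiles) chlorobenzene had 1. As a fixed block, chlorobenzene had 0, tacrolimus 2 (constitutive median 0.0463) and prednisolone a constitutive median of 0.0366. Within dates epirubicin had 1, tacrolimus 0, chlorobenzene 0, dexamethasone 2 and prednisolone 0 (constitutive median 0.0366). The methods' t-test after Benjamini-Hochberg gave prednisolone 0, and unadjusted it gave 192 higher, 106 lower, 4 lower by 1.5-fold, 15 for guanethidine, 14 for tacrolimus, 12 for doxorubicin and 15 for chlorobenzene. Adjusted over all genes and profiles, 9 were lower, epirubicin had 5 and guanethidine 2. At an adjusted p of 0.05 or less, 100 were higher and 58 lower, with 15 for guanethidine, 13 for tacrolimus and 14 for chlorobenzene. The causes were not tested.

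Leaving out single rats gave 5 to 12 members past the test for epirubicin, 2 to 7 for guanethidine, 4 to 8 for tacrolimus, 4 to 8 for doxorubicin, 3 to 6 for chlorobenzene, 4 in every fit for prednisone and dexamethasone and 0 to 4 for prednisolone. Treated rats alone were left out for epirubicin, doxorubicin, chlorobenzene and dexamethasone, and controls too for the others. In the fits of inducible subunits at single durations, controls were left out for chlorpropamide and hydrocortisone alone. The constitutive median was 0.09 to 0.15 for epirubicin, -0.21 to -0.16 for guanethidine, 0.09 to 0.15 for tacrolimus, 0.10 to 0.15 for doxorubicin, 0.07 to 0.11 for chlorobenzene, -0.09 to -0.01 for prednisone, -0.01 to 0.04 for dexamethasone and -0.04 to 0.01 for prednisolone. Inducible subunits past the test were 3 to 4 for chlorobenzene at 1 d, 0 to 2 for chlorpropamide at 5 d (0 without control 3 or 5 or any treated rat), 1 to 3 for dexamethasone at 3 d and 1 to 2 at 5 d, 4 in every fit for epirubicin at 5 d and for prednisone, 1 to 3 for hydrocortisone at 1 d, 0 to 4 for prednisolone, 0 to 4 for sulindac at 3 d (0 without treated rat 1 or 2) and 1 to 3 for tacrolimus at 3 d (1 without treated rat 1 or 2). Alternative values were computed for the members past the test in leading profiles and for Psmb8 and Psmb9 at 10 single durations. Of these 1027 values, 797 kept direction and side of the threshold, 228 kept the direction alone and 2 reversed.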
